A study of Homo sapiens with 15 samples.

Results

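The genes described here carry out the tricarboxylic acid (TCA) cycle and the oxidation of fatty acids in mitochondria. They were taken from a list of 36 enzymes, subunits and carriers named by their place in these pathways. Of these, 34 had a probe set of their own and are described, out of 19775 genes measured, and 2 were not analysed here. The list was chosen with earlier results of these data known, so shares called among these genes are description only. Expression was measured in PEO1 cells, an established human ovarian cancer cell line, which were stained for the surface proteins CD90 and CD133 and sorted into cells positive for both (CD90+/CD133+), for CD90 alone (CD90+/CD133-) and for neither (CD90-/CD133-). All fractions came from this 1 line in serum-containing medium, and no treatment beyond staining and sorting is given. Each fraction was hybridized to 5 arrays of 1 design (15 arrays in all), which the labels number as replicates 1 to 5. The submitters' design text speaks of culture in triplicate, and how many of the 5 arrays of a fraction came from cultures of their own cannot be told from it, so all 5 were used as replicates. The methods, however, state 5 biological replicates for the CD90+/CD133- and CD90-/CD133- fractions. For CD90+/CD133+ cells nothing says that the arrays came from separate cultures, so p-values there measure the spread between these arrays, which may be technical.

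In the TCA cycle, citrate synthase joins acetyl-CoA to oxaloacetate, and a ring of dehydrogenases then releases carbon dioxide and passes electrons to the respiratory chain. Fatty acids enter mitochondria as carnitine esters. Beta-oxidation then shortens them to acetyl-CoA, with electrons leaving through the electron transfer flavoprotein. Several steps of both pathways are run by complexes of different subunits, each encoded by its own gene.

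Values are probe-set intensities as the authors normalized them. Each gene is represented by its brightest probe set, values below 16 were raised to 16, and log2 values were used, so group means are geometric and SDs are on the log2 scale. Each pair of fractions was tested by limma, adjusted over all 19775 genes, and a gene is called at an adjusted p under 0.05. Precision is limited by the number of arrays. Arrays with the same replicate number varied together, and where blocking on that number altered a call, both values are given. As a check of the labels, THY1, which encodes CD90, ranged over 728 to 2171 in CD90+/CD133+ cells and 795 to 1221 in CD90+/CD133- cells, against 57.8 to 101 in CD90-/CD133- cells. PROM1, which encodes CD133, ranged over 429 to 1652 in CD90+/CD133+ cells and 21.5 to 156 in CD90+/CD133- cells, against 16 to 44.1 in CD90-/CD133- cells. The summed intensity of 8 epithelial markers was 26561 to 38218 in CD90+/CD133+ cells, 28662 to 38130 in CD90+/CD133- cells and 41882 to 51517 in CD90-/CD133- cells. Fibroblast markers were under 64 on every array for 8 of 9 genes in both CD90+ fractions and for 7 of 9 in CD90-/CD133- cells, and PTPRC, CD3E and LYZ of the 4 leukocyte markers were under 64 throughout. The fibroblast sum was 291 to 350.8 in CD90+/CD133+ cells, 272 to 305 in CD90+/CD133- cells and 364 to 429 in CD90-/CD133- cells, and the leukocyte sum was 142 to 232, 159 to 217 and 111 to 135 in these fractions. In each CD90+ fraction against CD90-/CD133- cells, limma called 1 leukocyte and 1 epithelial marker (EPCAM) higher. It called 1 fibroblast and 2 epithelial markers (KRT8 and KRT18) lower. The highest leukocyte log2 fold change was 1.00 in CD90+/CD133+ cells and 0.96 in CD90+/CD133- cells. The lowest fibroblast values were -1.98 and -2.02. With the block, EPCAM lost its call in CD90+/CD133+ cells (adjusted p = 0.0540) and KRT19 was called lower there (0.0415). The endothelial markers VWF, CDH5 and KDR were under 64 throughout. PECAM1 was under 64 on every array of CD90+/CD133- and CD90-/CD133- cells, but not of CD90+/CD133+ cells. The endothelial sum was 110 to 132 in CD90+/CD133+, 99.7 to 117 in CD90+/CD133- and 97.6 to 116 in CD90-/CD133- cells. The gap between 3′ and 5′ control probes of GAPDH, a sign of RNA quality, averaged 0.0498 (SD 0.0408) in CD90+/CD133+ cells, 0.186 (SD 0.0789) in CD90+/CD133- cells and 0.0565 (SD 0.0317) in CD90-/CD133- cells on the log2 scale. For CD90+/CD133- against CD90-/CD133- cells the 2-sided exact permutation p was 0.0159, and for CD90+/CD133+ against CD90+/CD133- cells it was 0.0238 (0.0714 for each when adjusted over 6 tests). The same gap for ACTB was wider, averaging 1.697 (SD 0.662) in CD90+/CD133+ cells, 2.46 (SD 0.564) in CD90+/CD133- cells and 1.84 (SD 0.322) in CD90-/CD133- cells. Its exact permutation p was 0.0714 for CD90+/CD133- against CD90-/CD133- cells and 0.0952 for CD90+/CD133+ against CD90+/CD133- cells (0.143 for each when adjusted). Both control genes thus had their widest mean gap in CD90+/CD133- cells. The part of these gaps or of the marker sums in the results was not tested. In sorted bulk RNA, fewer cells of a type and less RNA per cell cannot be told apart.

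All 34 genes were above 16 on every array. Mean intensity over the 15 arrays ranged from 34.0 to 4143, and 31 of the 34 averaged at least 64, as did 9988 of all genes. The dim ones were PC, ACADS and ETFDH, with group means from 30.3 to 55.9, and none of them was called.

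The first question was how the CD90+ fractions differ from CD90-/CD133- cells. In CD90+/CD133- cells against CD90-/CD133- cells, 7 of the 34 genes rose (20.6%, against 9.08% of all genes) and 9 fell (26.5%, against 9.88%), while 18 did not pass. The 7 that rose were CS, IDH2, IDH3G, DLST, SDHD, CPT1A and HADHB. Those that fell were IDH3B, SUCLG1, SDHC, MDH2, CPT2, SLC25A20, HADH, ACAA2 and ETFB. With only genes averaging at least 64 tested, 7 of 31 rose (22.6%, against 18.7% of such genes) and 10 fell (32.3%, against 18.4%). With the replicate block 8 of the 34 rose (12% of all genes) and 11 fell (13.6%). Of the 9988 genes averaging at least 64, 2103 rose and 2184 fell with the block. The median log2 fold change of the 34 genes was 0.01, beside 0 over all genes, and -0.07 over the 31 that averaged at least 64. The count of higher genes was 3 when replicate 2 or 4 of CD90+/CD133- cells, or number 2 or 4 of both fractions, was left out. It was 4 when replicate 3 of CD90+/CD133- cells, replicate 2 or 4 of CD90-/CD133- cells, or number 1 or 3 of both was left out.

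In CD90+/CD133+ cells against the same CD90-/CD133- arrays, 6 of 34 rose (17.6%, against 9.57% of all genes) and 8 fell (23.5%, against 10.8%). Among genes averaging at least 64 alone, 6 of 31 rose (19.4%, against 19.8%) and 9 fell (29.0%, against 19.3%). With the block, 7 rose (13% of all genes) and 11 fell (15.2%), as did 2273 and 2396 of the 9988 genes averaging at least 64. Without replicate number 3 the counts of the 34 genes, fitted without the block, were 2 and 5, and without replicate number 2 or 4 the count of lower genes was 5. The called genes were those of the first comparison without HADHB, SDHD and HADH, and with MDH1, which rose. Since both comparisons share the CD90-/CD133- arrays, their values are given side by side below and are not independent. The arrays of the fractions did not overlap for 11 of the 34 genes in CD90+/CD133+ against CD90-/CD133- cells (16.9% of all genes) and for 12 in CD90+/CD133- against CD90-/CD133- cells (16%). All genes include many averaging under 64, unlike most of the 34, and no such share was computed for the brighter genes alone. At the methods' threshold of 1.5-fold between averages, 2 of the 34 genes were higher (6.5% of all genes) and 7 lower (6.47%) in CD90+/CD133- cells. Past 2-fold there were SDHC, HADH and ACAA2, all lower, while 4.46% of all genes passed 2-fold in either direction. Of the 9988 genes averaging at least 64, 1115 were higher and 934 lower at 1.5-fold, and 653 passed 2-fold.

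**Figure D1:**
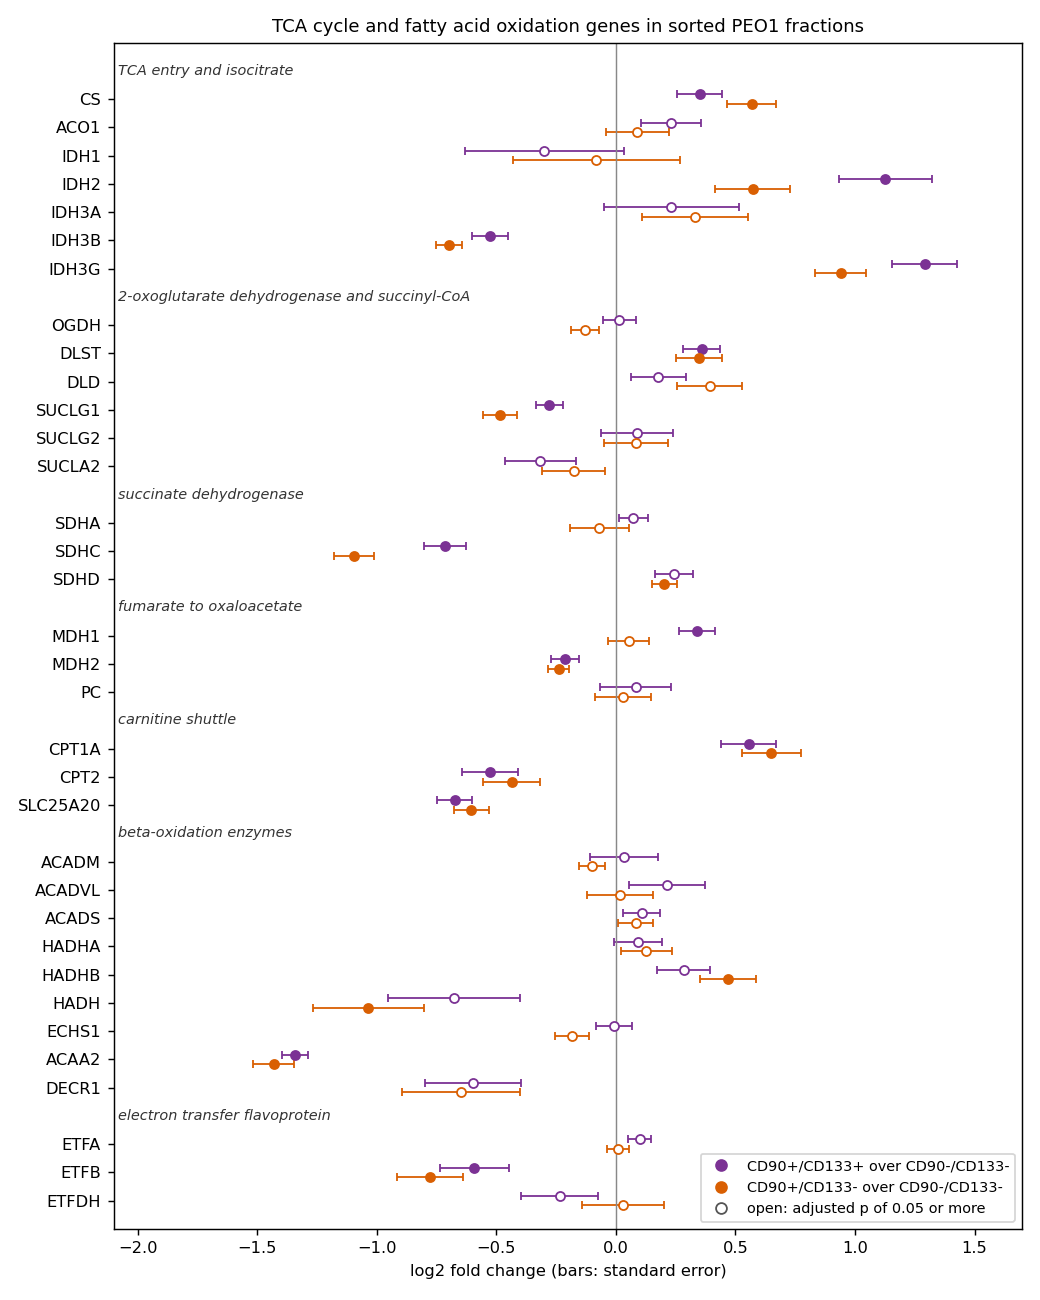
Log2 fold change (x axis) of the 34 genes, grouped by role down the page, for CD90+/CD133+ over CD90-/CD133- cells (purple) and CD90+/CD133- over CD90-/CD133- cells (orange), with standard errors as bars and filled points at adjusted p under 0.05. ACAA2 lies farthest to the left, at -1.34 and -1.43, and IDH3G farthest to the right, at 1.29 and 0.94.

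The mitochondrial NAD-linked isocitrate dehydrogenase, IDH3, is built from a catalytic alpha subunit (IDH3A) with beta and gamma subunits (IDH3B and IDH3G), and the transcripts of IDH3G and IDH3B moved in opposite directions. IDH3G, on chromosome X, was at 1054, 1387, 1482, 1470.3 and 1801 on the CD90+/CD133+ arrays and at 912, 1265, 1002, 1203 and 1220.2 on the CD90+/CD133- arrays, against 506, 628, 544, 626 and 605 on the CD90-/CD133- arrays. Every CD90+ array was above every CD90-/CD133- array. The log2 fold change was 1.29 (standard error 0.135, adjusted p = 3.19e-04) in CD90+/CD133+ cells and 0.94 (standard error 0.108, adjusted p = 6.25e-04) in CD90+/CD133- cells. IDH3B, on chromosome 20, was at 1118, 1168, 1353, 1058 and 1032 on the CD90+/CD133+ arrays and at 1097, 1026, 1000.2, 1044 and 905 on the CD90+/CD133- arrays, against 1764, 1646, 1609, 1669 and 1535 on the CD90-/CD133- arrays. Here every CD90+ array was below every CD90-/CD133- array. The log2 fold change was -0.53 (standard error 0.0744, adjusted p = 0.00147) in CD90+/CD133+ cells and -0.70 (standard error 0.0549, adjusted p = 1.10e-04) in CD90+/CD133- cells. All 3 probe sets of IDH3B were lower (-0.84 to -0.70 in CD90+/CD133- cells), and both of IDH3G were higher (0.74 to 0.94). IDH3A averaged 421 (SD 0.492) in CD90+/CD133+ cells, 451 (SD 0.282) in CD90+/CD133- cells and 359 (SD 0.425) in CD90-/CD133- cells, and the groups overlapped. It did not pass in CD90+/CD133- cells (log2 fold change 0.33, adjusted p = 0.412) unless the replicate block was used (adjusted p = 0.0326), when it was higher in 5 of 5 pairs. In CD90+/CD133+ cells it did not pass either way (adjusted p = 0.726, and 0.075 with the block). IDH3B and IDH3G kept their calls in both comparisons whichever array or replicate number was left out.

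The promoters of these subunits are shown because their transcripts went opposite ways, together with that of ACAA2, the gene with the largest change. Each run is the 250 bases before the RefSeq start on GRCh38.p14, 5′ to 3′ on the gene's strand, and capitals mark the letters TGCGCA, the core of the site of nuclear respiratory factor NRF1, which read the same on both strands.
IDH3A, chr15:78149112-78149361 (+ strand): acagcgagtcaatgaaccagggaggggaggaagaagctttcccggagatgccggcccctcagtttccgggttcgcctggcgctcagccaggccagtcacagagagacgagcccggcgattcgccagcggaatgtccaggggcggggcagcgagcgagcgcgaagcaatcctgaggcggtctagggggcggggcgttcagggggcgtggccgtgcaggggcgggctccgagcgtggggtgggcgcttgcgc
IDH3B, chr20:2664217-2664466 (- strand): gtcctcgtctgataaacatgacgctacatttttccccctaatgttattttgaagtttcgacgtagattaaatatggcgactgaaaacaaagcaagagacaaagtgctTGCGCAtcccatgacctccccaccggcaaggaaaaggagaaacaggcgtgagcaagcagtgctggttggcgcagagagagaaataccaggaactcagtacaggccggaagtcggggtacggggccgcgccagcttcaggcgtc
IDH3G, chrX:153794376-153794625 (- strand): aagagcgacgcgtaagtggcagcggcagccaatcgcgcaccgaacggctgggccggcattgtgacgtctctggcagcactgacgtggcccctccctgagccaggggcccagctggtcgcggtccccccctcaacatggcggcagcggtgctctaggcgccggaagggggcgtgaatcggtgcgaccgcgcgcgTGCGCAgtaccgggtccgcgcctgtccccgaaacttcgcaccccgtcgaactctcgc
ACAA2, chr18:49813534-49813783 (- strand): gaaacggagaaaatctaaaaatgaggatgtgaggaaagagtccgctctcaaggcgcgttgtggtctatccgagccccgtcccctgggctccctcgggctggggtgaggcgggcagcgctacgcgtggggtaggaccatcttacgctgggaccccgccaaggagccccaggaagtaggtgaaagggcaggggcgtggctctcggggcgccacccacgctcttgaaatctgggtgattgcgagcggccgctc
The runs of IDH3B, whose transcript fell, and IDH3G, whose transcript rose, each hold 1 match, and those of IDH3A and ACAA2 hold none. Of the 34 genes, 30 had a promoter in the table, and 6 of them hold TGCGCA (DLD, ETFA, IDH3B, IDH3G, SDHA and SDHD). Over the same window 6.89% of 35116 promoters do, counted by promoter and not by gene, and a gene can have several. AAGGTCA on either strand, the core of the site of estrogen-related receptors, was in 1 gene (SUCLA2), and in 3.44% of promoters. The motifs do not contain each other, and a match describes letters only.

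CS, citrate synthase, was at 2248, 1985, 2073, 2143 and 1745 on the CD90+/CD133+ arrays and at 2515, 2364, 2482, 2574 and 1934 on the CD90+/CD133- arrays, against 1756, 1603, 1712, 1619 and 1316 on the CD90-/CD133- arrays. The CD90+/CD133- arrays did not overlap with the CD90-/CD133- arrays, while 1 CD90+/CD133+ array (1745) fell within their range. It rose by 0.35 (standard error 0.0935, adjusted p = 0.0300) in CD90+/CD133+ cells and by 0.57 (standard error 0.102, adjusted p = 0.00553) in CD90+/CD133- cells on the log2 scale. The first call was lost without any 1 of CD90+/CD133+ replicates 1 to 4 or CD90-/CD133- replicates 2 and 4 (adjusted p up to 0.0725) and without any 1 of replicate numbers 1 to 4 in both fractions (up to 0.128), and the second was not lost. IDH2, the NADP-linked mitochondrial isocitrate dehydrogenase, was at 217, 304, 326, 373 and 397 on the CD90+/CD133+ arrays and at 189.8, 260.5, 221, 233 and 183 on the CD90+/CD133- arrays, against 109, 140.4, 153, 144 and 190.3 on the CD90-/CD133- arrays. The CD90+/CD133+ arrays lay above all CD90-/CD133- arrays, and the CD90+/CD133- arrays overlapped with them. The log2 fold change was 1.13 (standard error 0.194, adjusted p = 0.00401) in CD90+/CD133+ cells. In CD90+/CD133- cells it was 0.57 (standard error 0.155, adjusted p = 0.0341), in 4 of 5 pairs, and the block ended this call (adjusted p = 0.0669). This call was also lost without any 1 of CD90+/CD133- replicates 2 to 4 or CD90-/CD133- replicates 1 to 4 (log2 fold change 0.47 to 0.59, adjusted p up to 0.0795) and without any 1 of replicate numbers 1 to 4 in both fractions (up to 0.150). IDH1, the cytosolic NADP-linked enzyme, averaged 1239.7 (SD 0.582), 1442 (SD 0.633) and 1526 (SD 0.496) in the CD90+/CD133+, CD90+/CD133- and CD90-/CD133- fractions, and replicate 1 was the lowest array in all 3 fractions. In CD90+/CD133+ cells its log2 fold change of -0.30 was not called (adjusted p = 0.677), and it was called with the block (adjusted p = 0.0325). ACO1, the cytosolic aconitase, had log2 fold changes of 0.23 and 0.09 in CD90+/CD133+ and CD90+/CD133- cells and did not pass (adjusted p = 0.273 and 0.819).

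**Figure D2:**
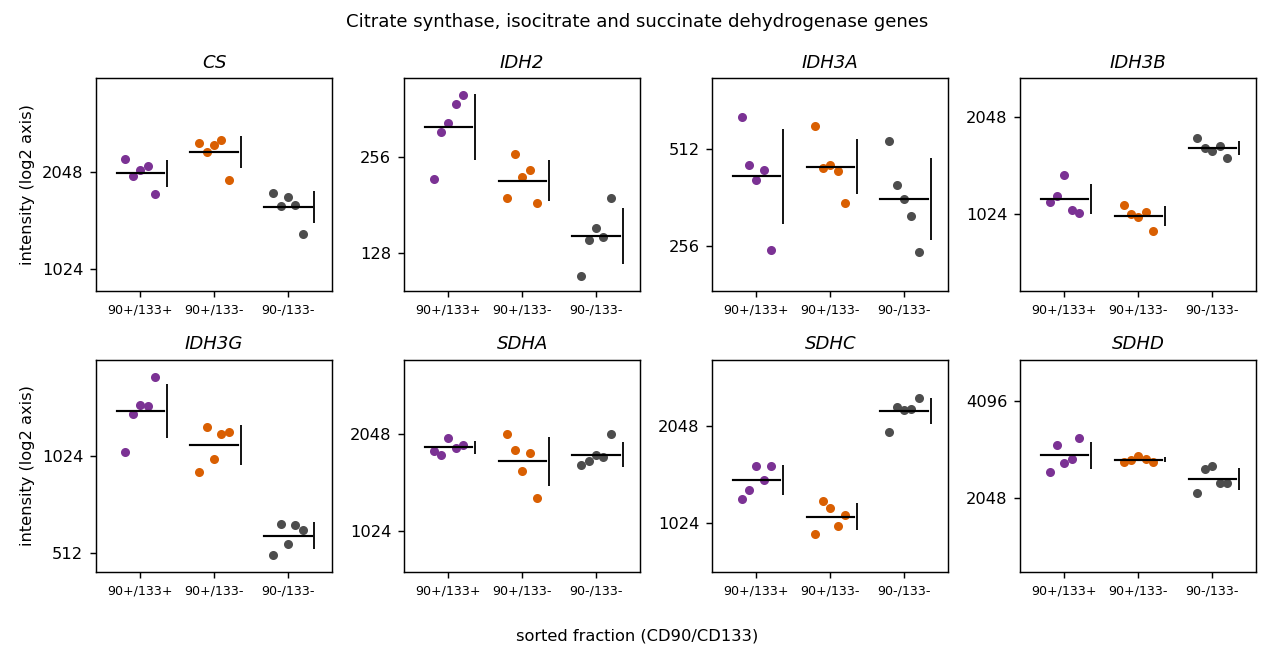
Intensity (y axis, log2 scale) of 8 TCA cycle genes on each array of CD90+/CD133+ (purple), CD90+/CD133- (orange) and CD90-/CD133- (grey) samples from left to right, with group means as horizontal lines and 1 SD of the log2 values to either side as vertical bars. IDH3G is higher (1054 to 1801 and 912 to 1265, against 506 to 628) and IDH3B and SDHC are lower in both CD90+ fractions.

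The 2-oxoglutarate dehydrogenase complex consists of OGDH, which decarboxylates the substrate, DLST, which takes on the succinyl group, and DLD, the dihydrolipoyl dehydrogenase that other complexes also use. DLST averaged 1213 (SD 0.0526) in CD90+/CD133+ cells and 1203 (SD 0.144) in CD90+/CD133- cells, against 946 (SD 0.169) in CD90-/CD133- cells. It rose by 0.36 (standard error 0.0769, adjusted p = 0.0113) in CD90+/CD133+ cells and by 0.35 (standard error 0.0965, adjusted p = 0.0373) in CD90+/CD133- cells on the log2 scale. The second call was lost without any 1 of CD90+/CD133- replicates 1, 2, 4 and 5 or CD90-/CD133- replicates 1 to 4 (0.31 to 0.37, adjusted p up to 0.0884) and without any 1 of replicate numbers 1 to 4 in both fractions (up to 0.142), and the first without replicate number 1 or 3 (up to 0.068). DLD averaged 1699.9 (SD 0.226) in CD90+/CD133+ cells, 1971 (SD 0.282) in CD90+/CD133- cells and 1503 (SD 0.135) in CD90-/CD133- cells. In CD90+/CD133- cells its log2 fold change of 0.39 was not called (adjusted p = 0.0846). It was called with the block (adjusted p = 0.0322), with the mean of its probe sets (0.43, adjusted p = 0.0410), with only genes averaging at least 64 tested (adjusted p = 0.0406) and without CD90+/CD133- replicate 5 (0.50, adjusted p = 0.00907). Its log2 fold change in CD90+/CD133+ cells was 0.18 (adjusted p = 0.372). OGDH had log2 fold changes of 0.01 and -0.13 in CD90+/CD133+ and CD90+/CD133- cells (adjusted p = 1.0 and 0.198).

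Succinyl-CoA ligase pairs an alpha subunit, SUCLG1, with a beta subunit that uses GDP (SUCLG2) or ADP (SUCLA2). SUCLG1 was at 1329, 1481, 1568, 1380.2 and 1415 on the CD90+/CD133+ arrays and at 1356, 1299, 1323, 1069.8 and 1180.0 on the CD90+/CD133- arrays, against 1786, 1881, 1724, 1588 and 1716 on the CD90-/CD133- arrays, with no overlap. It fell by 0.28 (standard error 0.0559, adjusted p = 0.00855) in CD90+/CD133+ cells and by 0.48 (standard error 0.0729, adjusted p = 0.00236) in CD90+/CD133- cells on the log2 scale, and kept both calls whichever array or replicate number was left out. Neither beta subunit passed. SUCLG2 had log2 fold changes of 0.09 and 0.08 and SUCLA2 of -0.32 and -0.18 in CD90+/CD133+ and CD90+/CD133- cells (adjusted p from 0.195 to 0.871), and SUCLA2 was lower in 5 of 5 pairs in both.

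Succinate dehydrogenase links the cycle to the respiratory chain. SDHA, its flavoprotein subunit, did not pass, SDHC, a membrane anchor, fell in both comparisons, and SDHD, the other membrane anchor, rose in CD90+/CD133- cells. SDHC, on chromosome 1, was at 1211, 1296, 1537, 1386 and 1538 on the CD90+/CD133+ arrays and at 942, 1197, 1134, 999 and 1079.5 on the CD90+/CD133- arrays, against 1956, 2349, 2293, 2317 and 2505 on the CD90-/CD133- arrays. All 3 fractions were apart from one another, with the CD90+/CD133- arrays lowest. The log2 fold change was -0.71 (standard error 0.0876, adjusted p = 7.24e-04) in CD90+/CD133+ cells and -1.09 (standard error 0.0834, adjusted p = 9.27e-05) in CD90+/CD133- cells, and no left-out array or replicate number ended either call. All 7 probe sets of SDHC were lower in CD90+/CD133- cells, by log2 fold changes from -1.48 to -0.19. SDHD averaged 2772 (SD 0.141) in CD90+/CD133+ cells, 2691 (SD 0.0265) in CD90+/CD133- cells and 2340.1 (SD 0.116) in CD90-/CD133- cells. It rose in CD90+/CD133- cells (by 0.20 on the log2 scale, standard error 0.0519, adjusted p = 0.0276), and not past the threshold in CD90+/CD133+ cells (0.24, standard error 0.0797, adjusted p = 0.0657). The call was lost without any 1 of CD90+/CD133- replicates 2 to 4 or CD90-/CD133- replicates 4 and 5 (0.19 to 0.20, adjusted p up to 0.0679), without replicate number 1, 2, 4 or 5 in both fractions (0.17 to 0.23, adjusted p up to 0.132), with quantile normalization (0.16, adjusted p = 0.0999) and with only genes averaging at least 64 tested (adjusted p = 0.0707). SDHA had log2 fold changes of 0.07 and -0.07 in CD90+/CD133+ and CD90+/CD133- cells (adjusted p = 0.540 and 0.891). The probe sets used for SDHA, SDHC and IDH3B are of the kind that can share sequence with other transcripts, so these levels are uncertain.

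MDH2, the mitochondrial malate dehydrogenase, averaged 3971 (SD 0.113) in CD90+/CD133+ cells and 3895 (SD 0.0704) in CD90+/CD133- cells, against 4599 (SD 0.0722) in CD90-/CD133- cells. It fell by 0.21 (standard error 0.0585, adjusted p = 0.0344) in CD90+/CD133+ cells and by 0.24 (standard error 0.0439, adjusted p = 0.00612) in CD90+/CD133- cells on the log2 scale. The first call was lost without any 1 of CD90+/CD133+ replicates 2 and 4 or CD90-/CD133- replicates 2 to 5 (adjusted p up to 0.0804), without any 1 of replicate numbers 2 to 5 in both fractions (up to 0.131), and among genes averaging at least 64 (adjusted p = 0.0519). MDH1, the cytosolic form, averaged 3933 (SD 0.133), 3223 (SD 0.163) and 3107 (SD 0.115) in the CD90+/CD133+, CD90+/CD133- and CD90-/CD133- fractions. It rose in CD90+/CD133+ cells, where no array overlapped with CD90-/CD133- (log2 fold change 0.34, standard error 0.0765, adjusted p = 0.0143), and lost the call without replicate number 3 or 4 (adjusted p up to 0.0864). In CD90+/CD133- cells its log2 fold change was 0.05 (adjusted p = 0.863). The difference between both CD90+ fractions, 0.29, did not pass (adjusted p = 0.257). PC, pyruvate carboxylase, which makes oxaloacetate from pyruvate, had log2 fold changes of 0.08 and 0.03 (adjusted p = 0.890 and 1.0).

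All 3 genes of the carnitine shuttle were called in both comparisons, 1 upwards and 2 downwards. CPT1A, which forms acylcarnitines at the outer mitochondrial membrane and sets the pace of entry, was at 1317, 1560.0, 1491, 1498 and 1729 on the CD90+/CD133+ arrays and at 1332, 1676, 1622, 1869 and 1624 on the CD90+/CD133- arrays, against 800.3, 1064, 1018, 1109 and 1205 on the CD90-/CD133- arrays. No CD90+ array overlapped with the CD90-/CD133- arrays. CPT1A rose by 0.56 (standard error 0.115, adjusted p = 0.00963) in CD90+/CD133+ cells and by 0.65 (standard error 0.124, adjusted p = 0.00726) in CD90+/CD133- cells. All 4 of its probe sets were higher in CD90+/CD133- cells (0.36 to 0.74). SLC25A20, the carrier that exchanges acylcarnitine for carnitine across the inner membrane, was at 58.7, 71.0, 70.5, 77.4 and 65.4 on the CD90+/CD133+ arrays and at 71.2, 81.6, 69.0, 77.2 and 61.4 on the CD90+/CD133- arrays, against 114, 105, 115, 108 and 103 on the CD90-/CD133- arrays. Neither CD90+ fraction overlapped with the CD90-/CD133- arrays. SLC25A20 fell by 0.67 (standard error 0.0720, adjusted p = 3.52e-04) and by 0.60 (standard error 0.0751, adjusted p = 9.10e-04) on the log2 scale in CD90+/CD133+ and CD90+/CD133- cells. CPT2, which returns the acyl group to CoA inside, averaged 142 (SD 0.157) and 152 (SD 0.163) in these fractions, against 205 (SD 0.221) in CD90-/CD133- cells. The log2 fold change was -0.53 (standard error 0.118, adjusted p = 0.0142) in CD90+/CD133+ cells and -0.44 (standard error 0.120, adjusted p = 0.0358) in CD90+/CD133- cells, lower in 5 of 5 pairs in both although the arrays overlapped. The CPT2 call in CD90+/CD133- cells was lost without any 1 of CD90+/CD133- replicates 1 to 4 or CD90-/CD133- replicates 2 to 5 (-0.46 to -0.37, adjusted p up to 0.0818), without any 1 of replicate numbers 2 to 5 in both fractions (up to 0.154) and with the mean of its probe sets (adjusted p = 0.0545). In CD90+/CD133+ cells it was lost without replicate number 2, 3 or 4 (up to 0.0856), and that of CPT1A without replicate number 2 or 3 (up to 0.0581).

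**Figure D3:**
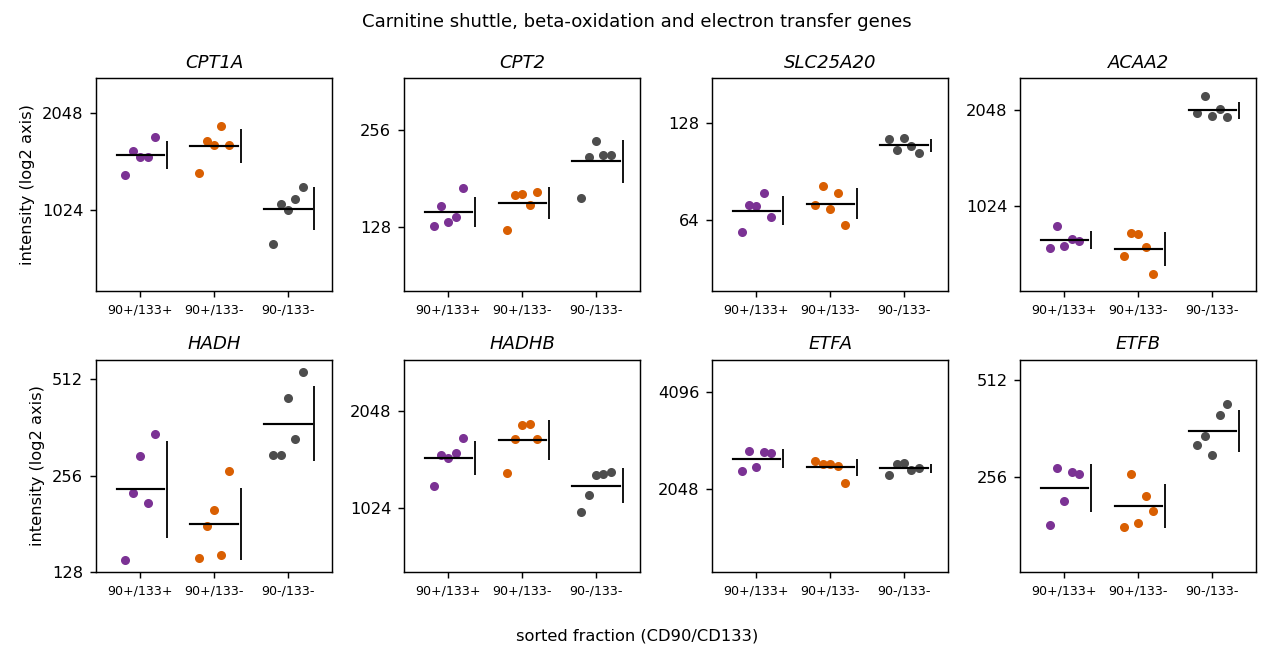
Intensity (y axis, log2 scale) of 8 fatty acid oxidation genes on each array of CD90+/CD133+ (purple), CD90+/CD133- (orange) and CD90-/CD133- (grey) samples from left to right, with group means as horizontal lines and 1 SD of the log2 values to either side as vertical bars. CPT1A is higher in both CD90+ fractions (1317 to 1869, against 800.3 to 1205), while SLC25A20, ACAA2 and ETFB are lower with no overlap.

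Of the 9 enzymes of beta-oxidation, ACAA2 fell in both comparisons, HADH fell and HADHB rose in CD90+/CD133- cells, and the other 6 were not called (DECR1 and ECHS1 were with the block). ACAA2, the thiolase that releases acetyl-CoA in the last step, lies on chromosome 18. It was at 757, 888, 769.7, 810.1 and 800.0 on the CD90+/CD133+ arrays and at 717, 844, 842, 766 and 632 on the CD90+/CD133- arrays, against 1991, 2257, 1959.9, 2055 and 1934 on the CD90-/CD133- arrays. Every CD90+ array was under every CD90-/CD133- array by a wide gap. ACAA2 was 2.53-fold lower in CD90+/CD133+ cells (-1.34 on the log2 scale, standard error 0.0551, adjusted p = 5.33e-06) and 2.69-fold lower in CD90+/CD133- cells (-1.43, standard error 0.0856, adjusted p = 3.33e-05). Its 3 probe sets were all lower in CD90+/CD133- cells (-1.43 to -0.47), and 1 of them was at 0.02 in CD90+/CD133+ cells. HADH, the short-chain hydroxyacyl-CoA dehydrogenase, was at 139.8, 227, 295, 209.7 and 346 on the CD90+/CD133+ arrays and at 142, 179, 199.5, 145 and 264 on the CD90+/CD133- arrays, against 297, 296, 448, 333 and 538 on the CD90-/CD133- arrays. The CD90+/CD133- arrays were all under the CD90-/CD133- arrays, while the CD90+/CD133+ arrays overlapped with them. HADH fell by 1.04 on the log2 scale in CD90+/CD133- cells (standard error 0.232, adjusted p = 0.0155). In CD90+/CD133+ cells the log2 fold change was -0.68 (standard error 0.276, adjusted p = 0.133, 0.0137 with the block and 0.0494 with only genes averaging at least 64 tested), with 5 of 5 pairs lower in both. The call in CD90+/CD133- cells was lost without replicate number 2, 3 or 4 (adjusted p up to 0.0743).

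HADHA and HADHB encode the alpha and beta subunits of the trifunctional protein, which handles long chains, and lie next to each other on chromosome 2. HADHB averaged 1466 (SD 0.178), 1666 (SD 0.205) and 1204 (SD 0.180) in the CD90+/CD133+, CD90+/CD133- and CD90-/CD133- fractions. It rose by 0.47 in CD90+/CD133- cells (standard error 0.119, adjusted p = 0.0257) and had a log2 fold change of 0.28 in CD90+/CD133+ cells (standard error 0.110, adjusted p = 0.115, and 0.0108 with the block), with 5 of 5 pairs higher in both. Without any 1 of CD90+/CD133- replicates 2 to 4 or CD90-/CD133- replicate 2, HADHB lost its call in CD90+/CD133- cells (0.43 to 0.47, adjusted p up to 0.0648), as it did without any 1 of replicate numbers 2 to 5 in both fractions (up to 0.124). HADHB was called in CD90+/CD133+ cells with median centring (0.32, adjusted p = 0.0237), without CD90+/CD133+ replicate 1 (adjusted p = 0.0369) and without replicate number 1 (adjusted p = 0.0307). HADHA had log2 fold changes of 0.09 and 0.13 in CD90+/CD133+ and CD90+/CD133- cells (adjusted p = 0.675 and 0.540). DECR1, a dienoyl-CoA reductase for unsaturated chains, averaged 361 (SD 0.216) and 349 (SD 0.390) in these fractions, against 547 (SD 0.406) in CD90-/CD133- cells. Its log2 fold changes of -0.60 and -0.65 were not called (adjusted p = 0.0714 and 0.111), with 5 of 5 pairs lower in both. DECR1 was called in both with the block (adjusted p = 0.0117 and 0.0201), with only genes averaging at least 64 tested (0.0243 and 0.0393), without CD90-/CD133- replicate 1 (0.0136 and 0.0478) and without replicate number 1 (0.0222 and 0.0229). It was also called in CD90+/CD133+ cells with median centring (adjusted p = 0.0328) and with no floor (adjusted p = 0.0447), and in CD90+/CD133- cells with all 3 fractions in 1 fit (adjusted p = 0.0484). ECHS1, the short-chain enoyl-CoA hydratase, had log2 fold changes of -0.01 and -0.18 (adjusted p = 1.0 and 0.119), and was called in CD90+/CD133- cells with the block (adjusted p = 0.0482) and without replicate number 5 (-0.14, adjusted p = 0.0141). The acyl-CoA dehydrogenases ACADM, ACADVL and ACADS, which take the first step for medium, very long and short chains, had log2 fold changes from -0.10 to 0.21 and did not pass with or without the block.

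The electron transfer flavoprotein carries electrons from the acyl-CoA dehydrogenases through its alpha and beta subunits (ETFA and ETFB) to its oxidoreductase (ETFDH). ETFB, on chromosome 19, was at 181, 272, 216, 265 and 261 on the CD90+/CD133+ arrays and at 179, 262, 184, 224 and 201 on the CD90+/CD133- arrays, against 321, 344, 301, 400.4 and 431 on the CD90-/CD133- arrays. No CD90+ array reached the CD90-/CD133- range. ETFB fell by 0.59 (standard error 0.145, adjusted p = 0.0205) and by 0.78 (standard error 0.136, adjusted p = 0.00498) on the log2 scale in CD90+/CD133+ and CD90+/CD133- cells. The first call was lost without replicate 3 of CD90+/CD133+ cells, replicate 4 of CD90-/CD133- cells or any 1 of replicate numbers 2 to 5 (-0.65 to -0.55, adjusted p up to 0.0753), and the second was kept. ETFA, at means of 2543 (SD 0.0978), 2388 (SD 0.0906) and 2374 (SD 0.0487) in the CD90+/CD133+, CD90+/CD133- and CD90-/CD133- fractions, had log2 fold changes of 0.10 (adjusted p = 0.207) and 0.01 (adjusted p = 1.0). ETFDH had log2 fold changes of -0.23 and 0.03 (adjusted p = 0.410 and 1.0).

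CD90+/CD133+ cells were also set against CD90+/CD133- cells, to ask what CD133 adds within CD90+ cells. None of the 34 genes was called by limma, with or without the block (10 of all genes, 0.0506%, and 19 with the block, 0.0961%), and 7 had an unadjusted p under 0.05, as did 2356 of all genes. Their median log2 fold change was 0.05, with a range from -0.27 (ETFDH) to 0.56 (IDH2, adjusted p = 0.251). The other probe set of IDH2 was at -0.0093. SDHC had the smallest adjusted p of the 34 (0.155, log2 fold change 0.38, standard error 0.0895) and was the 1 gene of the 34 whose arrays did not overlap between these fractions. The sort markers THY1 and PROM1 were not called here either, with or without the block (smallest adjusted p = 0.0703, limma). This was so although PROM1 had a log2 fold change of 4.38. The absence of calls therefore does not show that these fractions are alike.

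Because the 34 genes lie on 19 chromosomes and neighbouring genes can move together, each was set beside the 30 nearest genes on its chromosome that averaged at least 64, with all values measured from the median of such genes. Neighbour medians ranged from -0.92 to 0.71 in CD90+/CD133+ cells and from -0.79 to 0.69 in CD90+/CD133- cells, both over CD90-/CD133- cells. Around ACAA2 the neighbours had medians of -0.92 and -0.79 in CD90+/CD133+ and CD90+/CD133- cells, around SDHC of -0.46 and -0.49, around IDH3B of -0.35 and -0.30, around IDH3G of 0.65 and 0.65, and around IDH2 of 0.53 and 0.54. Each of these neighbour medians had the sign of the gene's own change. Around CPT1A the medians were 0.03 and 0.00, around SLC25A20 -0.06 and -0.14, and around ETFB 0.02 and 0.05, so the neighbours of these called genes lay near 0. Around ACADS they were 0.71 and 0.69, while ACADS itself was at 0.11 in both. Of the called genes, 12 of 14 in CD90+/CD133+ and 14 of 16 in CD90+/CD133- cells lay on the same side of 0 as their neighbours (MDH2 and ETFB did not). These counts include CPT1A and SLC25A20, whose neighbours lay near 0, and no such count was taken over all genes. Across the 34 genes, which share arrays and in part neighbours and are not independent, the gene's change and the neighbour median correlated at a Pearson r of 0.79 for CD90+/CD133+ cells and 0.72 for CD90+/CD133- cells. The part of neighbouring regions in the changes of single genes was not tested.

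**Figure D4:**
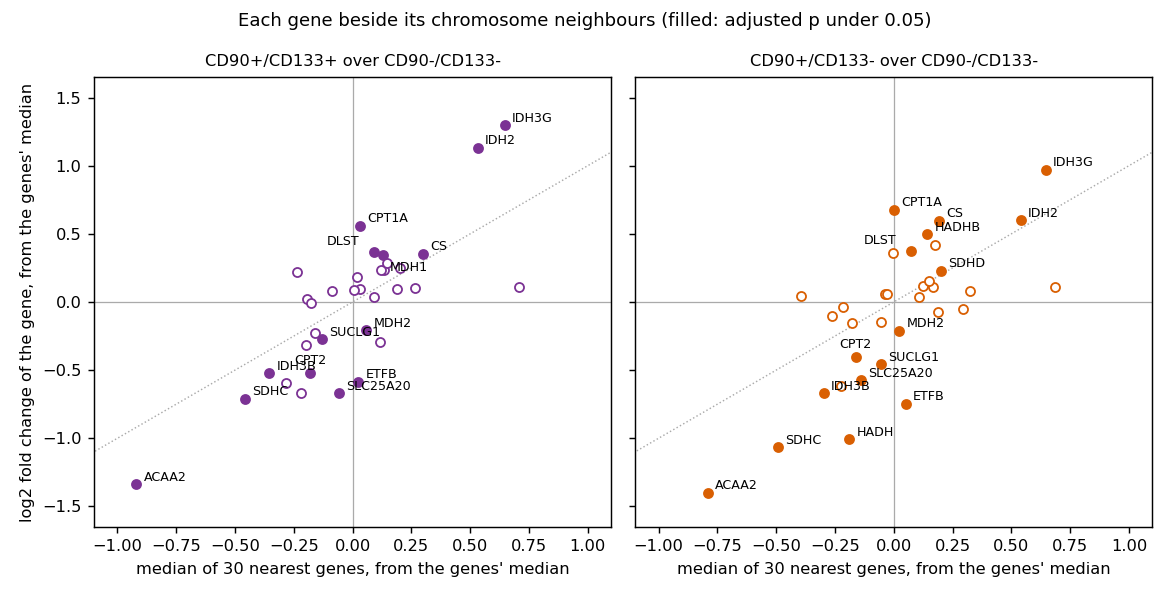
Log2 fold change of each of the 34 genes (y axis) against the median log2 fold change of its 30 nearest genes (x axis), both measured from the median of genes averaging at least 64, for CD90+/CD133+ (left) and CD90+/CD133- (right) over CD90-/CD133- cells. Filled points were called, the dotted line marks equal change, and ACAA2 at the lower left and IDH3G at the upper right lie far from 0 on both axes, while CPT1A and ETFB lie close to 0 on the x axis alone.

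Genes around these pathways were called in both directions as well. The counts below are without the replicate block unless it is named, and the block altered counts of each list in at least 1 comparison. In CD90+/CD133+ and CD90+/CD133- cells, 20.4% and 19.0% of all genes were called, and 32.95% and 31.1% of those averaging at least 64. The shares were 28.6% and 42.9% for other TCA cycle genes, 26.1% and 30.4% for other fatty acid oxidation, and 30.8% in both for pyruvate entry. They were 20% in both for regulators, 25% and 37.5% for carriers, 36.4% and 39.4% for respiratory subunits, and 46.7% and 33.3% for ATP synthase. Of 14 other measured TCA cycle and anaplerosis genes, 3 rose and 1 fell in CD90+/CD133+ cells and 3 rose and 3 fell in CD90+/CD133- cells, with median log2 fold changes of -0.07 and -0.11. ME2, the mitochondrial malic enzyme, fell by 1.32 and 1.27, and SDHAF2, which attaches the flavin to SDHA, fell by 0.60 in CD90+/CD133- cells (adjusted p = 1.00e-04). GOT1 rose by 0.98 and 0.84 (adjusted p = 6.17e-04 and 0.00437, limma) and GLUD1 by 0.59 and 0.75 (0.00404 and 0.00647). Of 23 other fatty acid oxidation genes, 3 rose and 3 fell in CD90+/CD133+ cells and 3 rose and 4 fell in CD90+/CD133- cells (medians 0.06 and -0.05). ACAA1, the peroxisomal thiolase, had log2 fold changes of 0.96 and 0.98 (adjusted p = 0.00425 and 0.0120), opposite in sign to ACAA2, and the carnitine transporter SLC22A5 had -0.91 and -0.74. Of 13 genes of pyruvate entry, none rose and 4 fell in CD90+/CD133+ cells and 1 rose and 3 fell in CD90+/CD133- cells, among them PDHX, a structural part of pyruvate dehydrogenase (-0.63 and -0.42), and PDHA1, its catalytic alpha subunit (-0.22 and -0.41). With the replicate block, 3 rose and 5 fell in each comparison. Of all genes, 13% rose and 15.2% fell with the block in CD90+/CD133+ cells, and 12% and 13.6% in CD90+/CD133- cells. PDK4 (1.04 and 1.05) and DLAT (0.35 and 0.49) were then higher in both. Their adjusted p in limma with the block was 0.0284 and 0.0186 for PDK4 and 0.0162 and 0.0177 for DLAT. Of 15 regulators, TFAM, which maintains mitochondrial DNA (0.51 and 0.27), and PPRC1, a coactivator of the PGC-1 family (0.49 and 0.63), rose, and MLYCD, which removes the CPT1 inhibitor malonyl-CoA, fell (-0.77 and -0.75). Among 8 mitochondrial carriers, none rose and 2 fell in CD90+/CD133+ cells and 3 fell in CD90+/CD133- cells. Of 33 subunits of respiratory complexes I, III and IV, 7 rose and 5 fell in CD90+/CD133+ cells and 3 rose and 10 fell in CD90+/CD133- cells, and of 15 ATP synthase subunits 4 rose and 3 fell, and 2 rose and 3 fell, in these fractions. With the block, 12 of the respiratory subunits rose and 5 fell in CD90+/CD133+ cells, and 3 rose and 10 fell in CD90+/CD133- cells. ATP5MC3, a subunit of the membrane ring of ATP synthase, averaged 45.0 and 54.6 by its brightest probe set in CD90+/CD133+ and CD90+/CD133- cells, against 3104.5 in CD90-/CD133- cells (log2 fold changes -6.11 and -5.83, adjusted p = 7.32e-05 and 5.05e-04).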

How the data were processed

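PEO1 cells sorted by CD90 and CD133 were profiled on 15 Affymetrix expression arrays, 5 per fraction, and each array was assigned to its fraction and replicate number from its title. The authors deposited linear intensities per probe set, scaled to one another by a cross-correlation method. How probes were summarised is not given in the sources used here. Their lowest deposited value was 5, and 32.7 to 34.5% of the values per array were under 16, with array medians of 29.4 to 32.4.

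Of 54675 probe sets, 41097 had 1 gene symbol in the platform annotation, 1801 had several, 11777 had none and 62 were controls. The 41091 used covered 19775 genes, of which 10523 had several probe sets. The brightest by mean log2 value stood for the gene, and 41037 probe sets matched a RefSeq gene number. A floor of 16 was applied before taking log2. Each pair of fractions was fitted with limma 3.58.1 (lmFit, eBayes, 2-sided, R 4.3.3) on its own arrays, with Benjamini-Hochberg adjustment over all genes and a threshold of 0.05. Tables were handled with Python 3.11.15 and pandas 2.3.3.

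The replicate numbers in the titles paired the arrays. Deviations from the fraction means correlated at 0.371 to 0.853 between same-numbered arrays of CD90+/CD133+ and CD90+/CD133- cells, 0.206 to 0.769 between CD90+/CD133+ and CD90-/CD133- cells and 0.200 to 0.787 between CD90+/CD133- and CD90-/CD133- cells, against means of -0.123, -0.115 and -0.103 for other numbers. On data simulated for CD90+/CD133- against CD90-/CD133- cells, 200 of 19775 genes were changed. There limma recovered 74% of 2-fold and 96% of 4-fold changes, and 8.11% of its calls were false. In the measured data of these fractions, limma called 1796 genes higher and 1953 lower, many more than 200. The rates therefore describe the simulated data only and need not hold for the measured data. No separate rates are given for arrays that vary together by replicate number or for dim genes.

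Fold change and adjusted p are given for genes called with or without the block and for other subunits of their complexes, and for other lists up to 4 called genes each. The members and lists were chosen with earlier results of these data known. Alternatives were another normalization, floor, probe-set rule, filter, test or block, and leaving out arrays or replicate numbers. Promoters came from RefSeq (GRCh38.p14).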

Additional observations from a re-analysis of the deposited data

Results flagged for a closer look

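Within fractions, 10 of 102 sets of 5 arrays (34 genes in 3 fractions) held an array that stood apart, with a gap to its nearest neighbour over 0.71 of the whole range. Chance flags about 1 in 20 such sets. In all 10 the array was low.

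IDH1 was low on replicate 1 of every fraction. It was at 603 in CD90+/CD133+ cells, where the others lay between 1423 and 1511, at 667 in CD90+/CD133- cells (others 1563 to 1948) and at 838 in CD90-/CD133- cells (others 1569.8 to 1927). Without replicate number 1 its log2 fold change in CD90+/CD133+ over CD90-/CD133- cells was -0.26 and passed with limma (adjusted p = 0.0329).

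Replicate 1 of CD90+/CD133- cells was also low for MDH2 (3578, others 3909.9 to 4019) and for DECR1 (216, others 376 to 420.3). Without replicate number 1 DECR1 passed with limma in CD90+/CD133- over CD90-/CD133- cells (log2 fold change -0.62, adjusted p = 0.0229). Replicate 5 of CD90+/CD133- cells was low for ECHS1 (1044, others 1297 to 1344) and for ETFA (2140.0, others 2411 to 2507). In CD90-/CD133- cells replicate 5 was low for DLD (1275, others 1526 to 1606) and for PC (43.1, others 53.3 to 57.2). Without replicate number 5 DLD passed with limma in CD90+/CD133- over CD90-/CD133- cells (0.44, adjusted p = 0.0101). ACADM was low on replicate 3 of CD90+/CD133+ cells (471, others 709 to 798). The causes were not tested.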

How the results depend on the processing

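Of the counts and medians of the 34 genes under the alternatives, 214 stayed close to the main value and 16 moved. Close means within a ratio of 1.5 for a count and within 1 SD of the medians of the replicate pairs for a median. A median that turned sign could thus still be close. The 214 include the counts in CD90+/CD133+ over CD90+/CD133- cells, which stayed at 0 whichever array or replicate number was left out. In CD90+/CD133- over CD90-/CD133- cells, the median log2 fold change of 0.01 lay close to 0 and its sign turned under some alternatives. It was -0.0689 among genes averaging at least 64, which leaves out 3 of the 34 genes, and -0.0672 to 0.0462 with an array or replicate number left out (-0.0672 without CD90-/CD133- replicate 1). The count of higher genes there ranged from 3 to 7. Past 2-fold instead of 1.5-fold were 3 genes (4.46% of all genes). In CD90+/CD133+ over CD90-/CD133- cells the count of higher genes ranged from 2 to 7 and that of lower genes from 5 to 11 with an array or replicate number left out. Each such fit has fewer samples, and other causes were not tested. For single genes 899 values had the same outcome as the main fit, called or not called, while 96 lost a call and 31 gained one. Of the called genes, 10 of 16 in CD90+/CD133- and 7 of 14 in CD90+/CD133+ cells kept their call without each array and replicate number. CS lost its call in CD90+/CD133+ cells with quantile normalization (adjusted p = 0.0506, limma). With the replicate block the counts were 8 higher and 11 lower in CD90+/CD133- cells and 7 and 11 in CD90+/CD133+ cells, and the block changed no call beyond those given with it. Median centring moved the median of all genes by 0.03 on the log2 scale in CD90+/CD133+ over CD90-/CD133- cells and by 0.02 in CD90+/CD133- over CD90-/CD133- cells. Intensities near 16 are close to the floor, which limits dim genes such as ETFDH.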
